A study of Danio rerio with 34 samples.

Results

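The genes described here are the 55 zebrafish proteasome genes of an RNA-seq count table, out of 47048 entries in that table that name a gene. They were taken by symbol: every gene whose symbol starts with *psma*, *psmb*, *psmc*, *psmd*, *psme* or *psmg* is a member, and this rule uses no expression value. The family itself was chosen with earlier results of these data known. Of the 55, 54 encode a proteasome subunit, an activator or an assembly chaperone. The remaining gene, *psmc3ip*, carries the prefix but encodes a cofactor of meiotic recombination and is not a subunit.

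The proteasome is the large protease that degrades proteins tagged with ubiquitin. Its barrel-shaped core stacks rings of alpha subunits (*psma*) around rings of beta subunits (*psmb*), and *psmb5*, *psmb6* and *psmb7* carry the chymotrypsin-like, caspase-like and trypsin-like active sites. A regulatory particle caps the barrel: its base holds the ATPases that unfold substrates (*psmc*) and the scaffold subunits *psmd1* and *psmd2*, and its lid holds further *psmd* subunits and removes ubiquitin. Alternative caps (*psme*) activate the core, assembly chaperones (*psmg1* to *psmg4* for the core, and *psmd5*, *psmd9* and *psmd10* for the base) help to build the particle, and in mammals interferon exchanges the catalytic subunits for immune-type ones.

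The libraries came from the trunk, which holds the aorta-gonad-mesonephros (AGM) region where blood stem cells arise, of Tg(*kdrl*:mCherry/*runx1*:en-GFP) embryos at 36 hours post fertilization (hpf). Endothelial cells (ECs), hemogenic endothelial cells (HECs), which turn into blood, and hematopoietic stem and progenitor cells (HSPCs) were sorted from *dnmt1* mutants, which lack normal function of the maintenance DNA methyltransferase, and from their siblings. There were 3 libraries for each of sibling EC, mutant EC, sibling HEC and mutant HEC, and 2 each (replicates 2 and 3) for sibling HSPC and mutant HSPC. By the study's methods the mutants carry the s872 allele, all groups carry both reporter transgenes, in which *kdrl* and *runx1* regulatory elements drive the fluorescent proteins, and each library was made from 500 sorted cells. The labels describe 3′-biased single-cell tagged chemistry instead, and which of these was used for the table cannot be told apart from the values used here. By the methods a library thus pools cells. The study's methods state at least 3 independent biological repeats for its statistics, while the HSPC groups hold 2 RNA libraries each. Whether the replicates came from separate clutches is not stated. *P*-values thus measure the spread between these libraries, and how much of it lies between clutches is not known.

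Total counts ran from 3125048 to 13201410 per library, and the libraries numbered 3 were the deepest. Levels are given as CPM, a gene's count divided by its library's total on genes and brought to 1 common scale. A count of 0 allowed a level of up to 0.227 to 0.960 CPM, taken as 3 counts of the library's total and covering counting error only. The sorted populations carried their markers in part: the summed CPM of the endothelial list was 3635 to 7560 in ECs, 1377 to 2501 in HECs and 19.6 to 59.4 in HSPCs, and *kdrl* was at 0 in 1 HSPC library. Erythroid genes summed to 30400 to 123686 CPM in HSPCs, 2634 to 12634 in HECs and 5.68 to 1752 in ECs, and hemoglobin rows took 3.28% to 17.5% of all HSPC counts, 0.336% to 1.84% of HEC counts and at most 0.234% of EC counts. The 13 genes of the hemogenic and hematopoietic list summed to 691 to 1549 CPM in HSPCs, 1375 to 3295 in HECs and 371 to 947 in ECs. Of these 13 genes, 3 had a higher fitted level in HSPCs than in HECs. The stem cell gene *runx1* was at 1.30 to 12.4 CPM in HSPCs, below its 15.7 to 76.4 CPM in HECs. *gfi1b*, of the same list, was at 67.3 to 191 CPM in HSPCs and 3.01 to 75.3 CPM in HECs. Myeloid genes summed to 1133 to 12933 CPM in HECs against 43.5 to 1555 in ECs and 166 to 2406 in HSPCs. Muscle genes summed to 5.22 and 10342 CPM in sibling HSPC replicates 2 and 3 and to 307 and 6464 CPM in mutant HSPC replicates 2 and 3, against 35.97 to 251 CPM in ECs and 29.8 to 1862 CPM in HECs. Neural genes summed to 856 to 2047 CPM in HSPCs, 244 to 667 in ECs and 8.12 to 628 in HECs. Epidermal genes summed to 566 to 892 CPM in ECs, 113 to 694 in HECs and 180 to 889 in HSPCs. In libraries of pooled cells fewer cells of a type and less RNA per cell cannot be told apart, and the part of these other cells in the results below was not tested.

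The targeted gene, *dnmt1*, gave no check of the genotype labels. Its CPM was 105, 67.5 and 45.7 in sibling ECs and 102, 125 and 80.8 in mutant ECs. It was 108, 147 and 133 in sibling HECs and 74.6, 134 and 112 in mutant HECs, and 164 and 77.9 in sibling HSPCs against 266 and 99.8 in mutant HSPCs. The ranges overlapped in each cell type, and whether the allele lowers the transcript is not given in the sources used here. The title of each RNA sample gives 1 genotype and its description, which spells a column name of the table, gives the other. Each column was taken as the genotype in its own name. Directions between mutant and sibling would reverse if the descriptions tied columns to samples and the titles were right, whereas comparisons between cell types, averaged over both genotypes, do not depend on it.

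Most proteasome genes were plainly expressed in every cell type. Of the 55 members, 48 passed the filter on low counts and were tested among 21161 genes. The 7 that did not were the immune-type subunits *psmb8a*, *psmb9a*, *psmb10*, *psmb11a* and *psmb11b*, the activator *psme1* and the chaperone *psmd10*. Summed over all 55 genes, the level was 6435 ± 912 CPM (s.d., *n* = 6) in ECs, 8127 ± 620 CPM (*n* = 6) in HECs and 6855 ± 1191 CPM (*n* = 4) in HSPCs. The sums were 7595, 6421 and 4881 CPM in sibling ECs and 6934, 6664 and 6114 CPM in mutant ECs. They were 9013, 7541 and 7308 CPM in sibling HECs and 8426, 8169 and 8306 CPM in mutant HECs. HSPCs had 6930.5 and 5517 CPM in siblings and 8397 and 6575 CPM in mutants. HECs thus held 4 of the 5 highest sums, but the ranges overlapped: sibling EC replicate 1 lay above the 2 lowest HEC libraries, and HSPC libraries spread over both other groups.

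**Figure D1:**
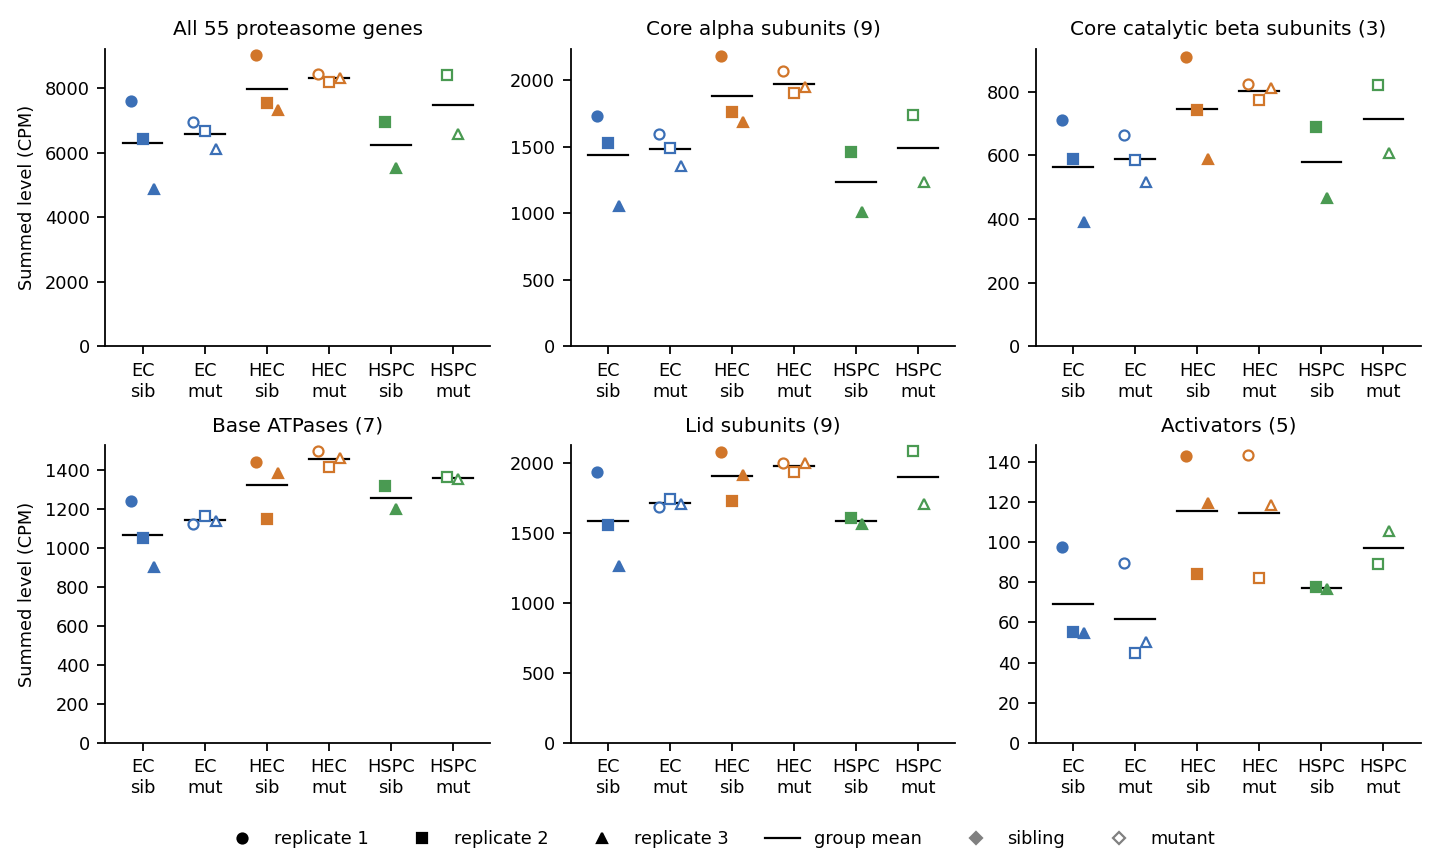
Summed level of proteasome genes in CPM for each library, for all 55 genes and for 5 structural classes (number of genes in parentheses), by cell type and genotype (sib, sibling, filled; mut, *dnmt1* mutant, open). Point shapes give the replicate number and lines the group means; axes start at 0. The 6 HEC libraries lie between 7308 and 9013 CPM over all genes, the 6 EC libraries between 4881 and 7595 CPM and the 4 HSPC libraries between 5517 and 8397 CPM.

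Outside the immune-type genes, the classes had their highest mean in HECs, except the base subunits without ATPase activity. Core alpha subunits summed to 1462 ± 234 CPM in ECs, 1927 ± 183 in HECs and 1363 ± 313 in HSPCs (s.d., *n* = 6, 6 and 4, as for the other classes). The 3 catalytic beta subunits summed to 576 ± 113, 774 ± 108 and 646 ± 149 CPM, and the base ATPases to 1105 ± 116, 1393 ± 125 and 1311 ± 76.4 CPM, in the same order. Lid subunits summed to 1651 ± 225, 1947 ± 120 and 1745 ± 238 CPM. The base subunits without ATPase activity (*psmd1*, *psmd2*, *psmd4a* and *psmd4b*) were at 563 ± 97.2 CPM in ECs and at 747 ± 87.4 and 757 ± 190 CPM in HECs and HSPCs. Activators summed to 65.3 ± 22.3, 115 ± 27.01 and 87.1 ± 13.4 CPM. CPM are not divided by transcript length, so that these sums compare cell types and not classes with each other.

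The first comparison asked how hemogenic endothelium differs from the endothelium around it. All 48 tested proteasome genes had a fitted level above that of ECs, under each of 3 scalings (TMM, RLE and column sums), against 50.6% of all 21161 genes. Most differences were small: the median log2 fold change was 0.41 (interquartile range 0.29 to 0.53, lowest 0.11, highest 2.59). The median of all genes was 0.02, and that of the 8930 genes at or above the 10th percentile of the members' mean level was 0.13. Here a gene was called when its Benjamini-Hochberg adjusted *P*-value from edgeR's quasi-likelihood test over all genes was under 0.05 and its log2 fold change was at least 1 in size. No proteasome gene was called, whereas 7.12% of all genes were. At an unadjusted *P* under 0.05, 12 of the 48 were higher (12.8% of all genes) and 0 were lower (12.4%). DESeq2, which fitted 54 members, called 2, *psme2* and *psme3* (9.8% of the genes it fitted). Its members and genes are counted by a fitted change, whether or not they kept an adjusted *P*, so this share differs in base from edgeR's. The proteasome genes thus shared a direction, while no single one passed the threshold in edgeR.

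By edgeR's adjusted *P* the core subunit genes *psma1*, *psmb5* and *psma8* came nearest to the threshold, whereas DESeq2 called the activators *psme2* and *psme3*. *psma1*, an alpha ring subunit, was at 201 to 308 CPM in ECs (median 252), 323 to 425 CPM in HECs (median 388), and at 322, 219, 332 and 270 CPM in HSPCs. Every HEC library was above every EC library, with a log2 fold change of 0.67 (SE 0.20, adjusted *P* = 0.052). *psma8* is in mammals the alternative alpha subunit of the testis. No *psma7* is among the members and *psma8* was at 244.5 CPM or more in every library, so that role may not carry over. *psma8* was at 259 to 373 CPM in ECs (median 315) and 384 to 519 CPM in HECs (median 466), again without overlap (0.60, SE 0.20, adjusted *P* = 0.078). The 9 core alpha genes had a median log2 fold change of 0.50, from 0.16 for *psma3* to 1.61 for *psma6l*. *psma6l*, an additional alpha-type gene of low level, was at 0 to 16.1 CPM in ECs and 10.96 to 40.1 CPM in HECs.

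Among the beta subunits, *psmb5* had the largest difference of the genes carrying active sites. It was at 40.9 to 87.3 CPM in ECs (median 50.6) and 72.3 to 149 CPM in HECs (median 102), with a log2 fold change of 0.87 (SE 0.27, adjusted *P* = 0.064). The ranges overlapped through mutant EC replicate 3, which had the highest EC level. A numbered second entry, which was not used, held 55.2% of the counts carrying the name *psmb5*. *psmb7* was at 303 to 464 CPM in ECs and 364 to 589 CPM in HECs (0.42, SE 0.22), and *psmb6* at 46.2 to 193 and 117 to 246 CPM (0.49, SE 0.38), both with overlapping ranges. The 4 beta subunits without an active site had a median of 0.26, from 0.19 for *psmb2* to 0.56 for *psmb4*.

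The regulatory particle differed by similar amounts. All 7 base ATPase genes were above ECs, with a median log2 fold change of 0.38 and values from 0.23 (*psmc6*) to 0.55 (*psmc1b*). The scaffold subunits *psmd1* and *psmd2* had 0.52 and 0.50. The values of *psmc6* and *psmd2* are partial: numbered entries, which were not used, held 89.0% and 64.1% of the counts carrying their names. The 9 lid genes had a median of 0.33, from 0.12 for *psmd13* to 0.54 for *psmd11b*, and *psmd14*, the lid enzyme that cleaves ubiquitin off substrates, had 0.41. The lowest value of all members was that of *psmd4b*, 1 of 2 copies of a ubiquitin receptor gene, at 0.11. The assembly chaperones had a median of 0.27, with *psmg3* lowest at 0.18.

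The activators were genes of low level. *psme2*, an interferon-inducible cap subunit in mammals, was at 0 to 13.3 CPM in ECs (median 5.03) and at 15.5 to 49.8 CPM in HECs (median 28.3), and every HEC library was above every EC library. Its log2 fold change was 2.59 (SE 0.89, adjusted *P* = 0.085), above those of *psmb12* (1.70, SE 1.31) and *psma6l* (1.61, SE 1.14), whose errors were wider. *psme3*, the nuclear cap subunit, was at 1.98 to 14.1 CPM in ECs and at 13.8 to 21.7 CPM in HECs (1.1, SE 0.43, adjusted *P* = 0.13), with mutant EC replicate 1 reaching into the HEC range. *psma1*, *psma8* and *psme2* were the 3 members with no overlap between HECs and ECs, 3 of 48 where 3.61% of all genes had every HEC library above every EC library.

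**Figure D2:**
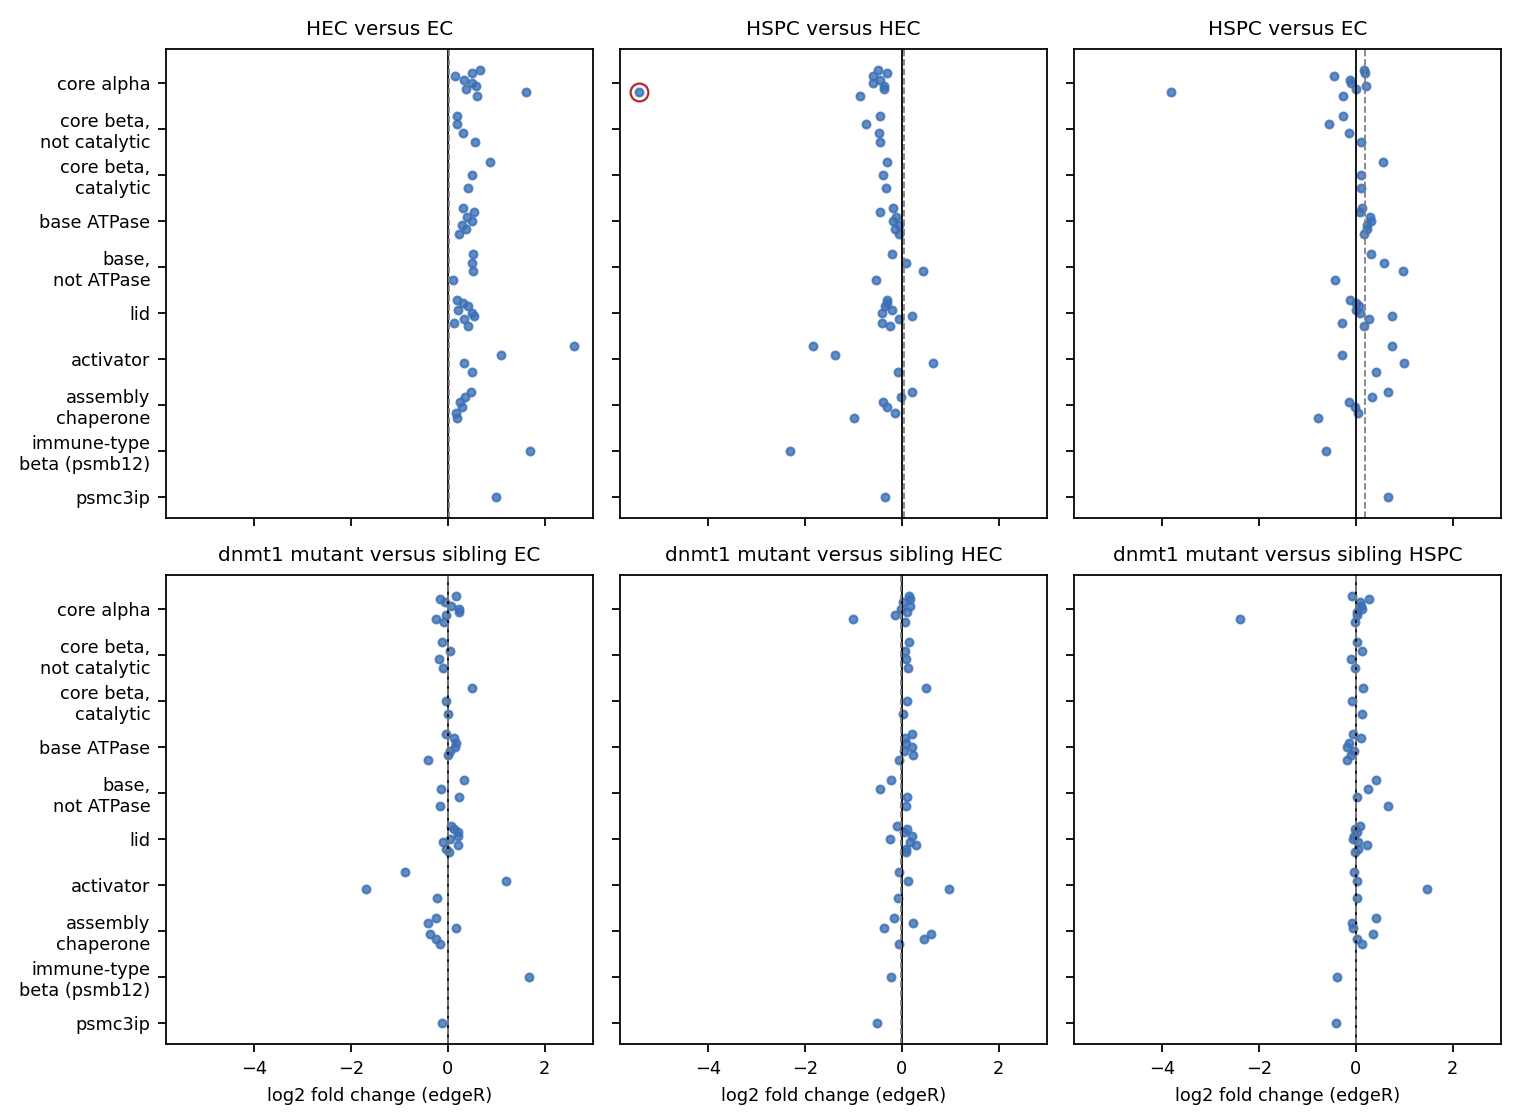
Fitted log2 fold changes of the 48 tested proteasome genes in the 3 comparisons between cell types (upper panels) and of mutants against siblings in each cell type (lower panels), grouped by structural class. The dashed line is the median of all 21161 tested genes and a red circle marks the called gene, *psma6l*. For HEC against EC all points lie above 0 (median 0.41); for HSPC against HEC 43 of 48 lie below 0 (median -0.33); for HSPC against EC 32 lie above 0 (median 0.10). Between genotypes the medians are -0.02, 0.08 and 0.02.

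**Figure D3:**
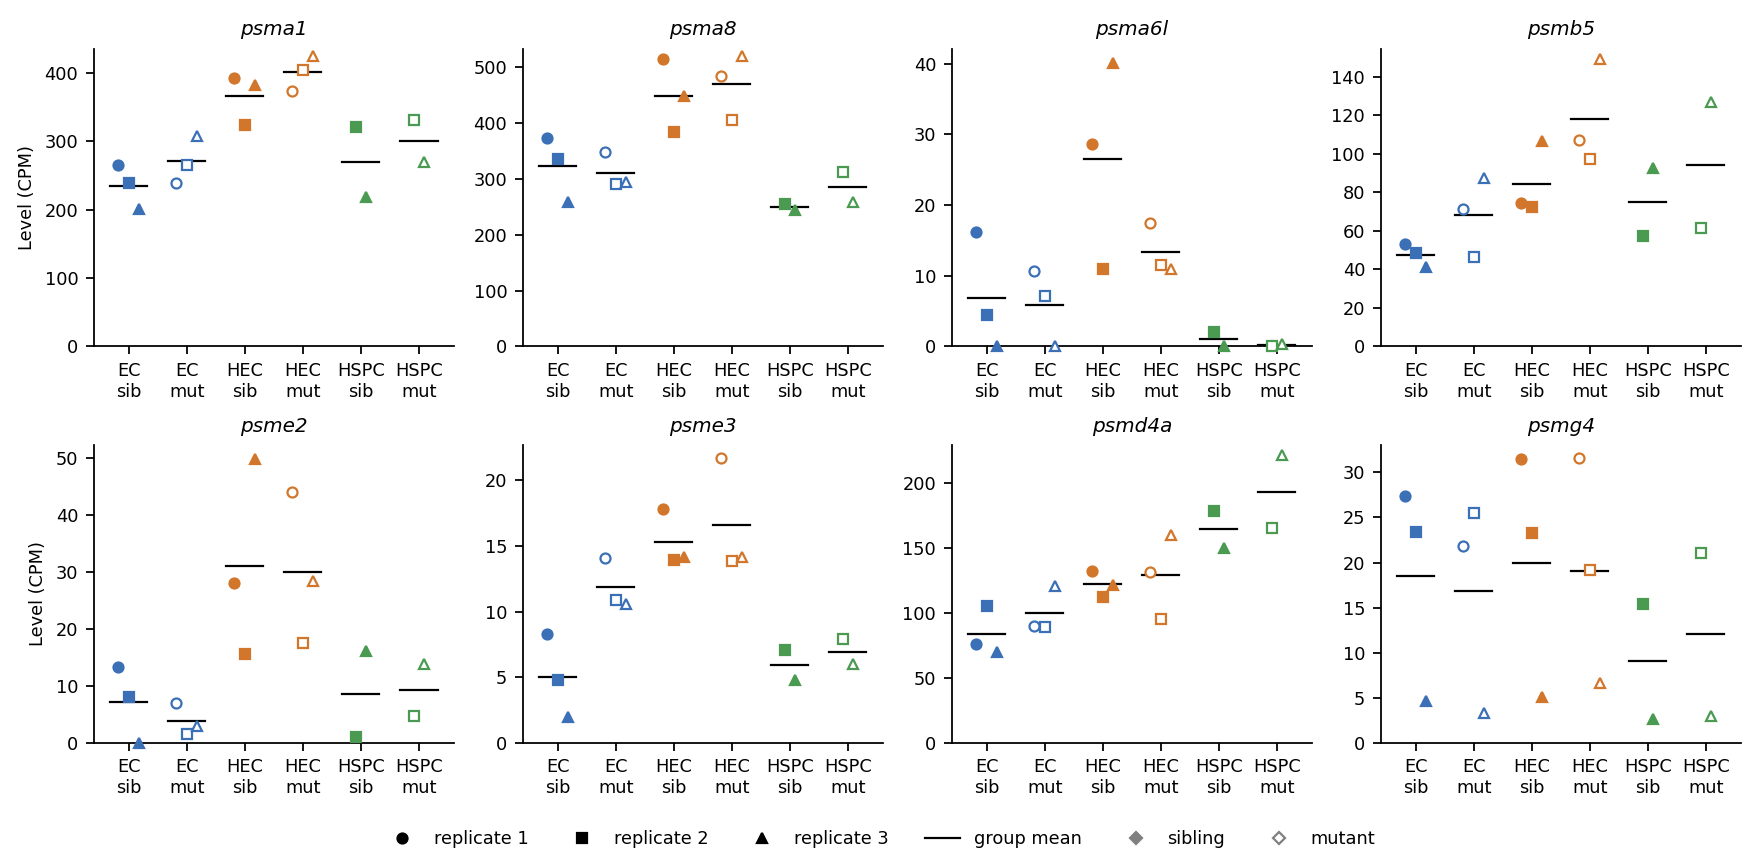
CPM of named proteasome genes in each library by cell type and genotype (filled, sibling; open, *dnmt1* mutant), with group means as lines and replicate numbers as point shapes. *psma1*, *psma8* and *psme2* have every HEC library above every EC library, and *psmd4a* has every HSPC library above every EC library.

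The higher level in HECs was seen in each same-numbered pair of libraries. Taking log2(CPM + 1) of each HEC library minus the EC library of the same genotype and number, 39, 38 and 42 of the 48 genes were higher in sibling replicates 1 to 3 and 39, 41 and 46 in mutant replicates 1 to 3. Of all genes, 42.3%, 51.7% and 47.9% were higher in these sibling pairs and 44.4%, 41.8% and 46.7% in the mutant pairs. With CPM rescaled by TMM factors the members' counts were 40, 32 and 43 in siblings and 40, 43 and 48 in mutants. The lowest count, for sibling replicate 2, thus depended on the scaling. Within siblings alone the fitted median was 0.41 with 44 genes above 0 (52.3% of all genes), and within mutants 0.45 with 47 (48.4%). Pairs numbered 3 had the largest median differences, 0.66 and 0.54, and sibling EC replicate 3 had the lowest summed level of all libraries. Without the libraries numbered 3, 45 of 48 genes were still above 0 and the median was 0.28.

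Libraries that share a number deviated together, so that the number was also fitted as a block. The block called no proteasome gene in this comparison at the fold minimum, but without that minimum 6 genes were above ECs at an adjusted *P* under 0.05 (7.04% of all genes), compared with 0 without the block. These were *psmb5* (0.85, SE 0.20, adjusted *P* = 0.019), *psma1* (0.67, SE 0.17, adjusted *P* = 0.025), *psma8* (0.60, SE 0.15, adjusted *P* = 0.025), *psmd1* (0.56, SE 0.15, adjusted *P* = 0.034), *psma6a* (0.60, SE 0.17, adjusted *P* = 0.041) and *psmc3* (0.50, SE 0.15, adjusted *P* = 0.049). They come from the alpha ring, the active sites, the ATPase ring and the scaffold. They rest on the same libraries as the median above and are no independent result. With the sibling and mutant libraries of a number summed into 1, edgeR called 0 members and 0 of 21367 genes. At an unadjusted *P* under 0.05, 3 of the 48 members were higher in that fit. The share of all genes at that cut was not counted there, so this is no result about the members.

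**Figure D4:**
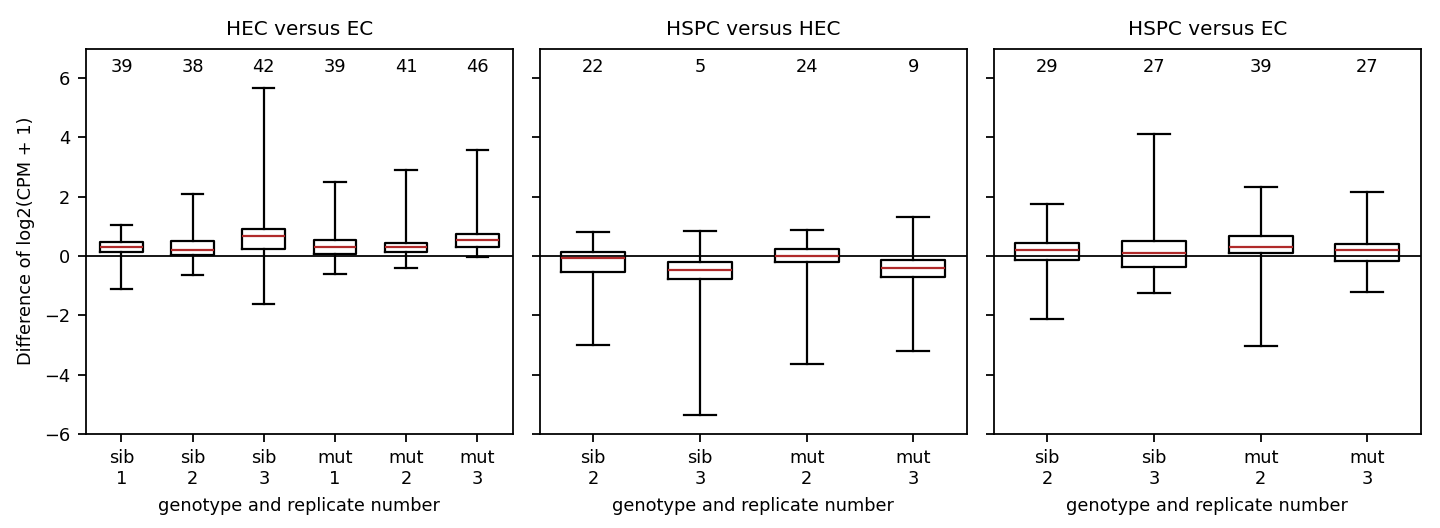
Difference of log2(CPM + 1) between libraries of the same genotype and replicate number for the 48 tested proteasome genes. Boxes show the quartiles and median, whiskers the lowest and highest gene, and the number above each box is the count of genes above 0, which is 38 to 46 for HEC against EC and 5 to 24 for HSPC against HEC.

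The second comparison set the sorted HSPCs against the HECs. Here 43 of 48 proteasome genes had a fitted level below that of HECs and 5 above it (51.1% of all genes were above), with a median log2 fold change of -0.33, where the median of all genes was 0.04 and that of the abundant genes -0.21. The HEC libraries enter both this comparison and the previous one, so the opposite sign of the medians is not a separate observation. The scaling moved these values: with RLE factors 35 were below HECs and 13 above, at a median of -0.16 with that of all genes at 0.19, and with column sums 39 were below and 9 above, at a median of -0.27. Relative to the median of all genes, the members' median was -0.36 under each of the 3 scalings. A change of scaling shifts all genes nearly alike, so it could hardly alter this difference. With at least 10 counts required in every library compared, the difference was -0.14. 1 gene was called, *psma6l*, among 14% of all genes called in either direction and 5.62% called lower. At an unadjusted *P* under 0.05, 4 genes were lower (12.7% of all genes) and 0 higher (17.5%).

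*psma6l* fell in HSPCs. It was at 10.96 to 40.1 CPM in HECs (median 14.5), and at 2.09 and 0 CPM in sibling HSPCs and 0 and 0.303 CPM in mutant HSPCs, so that no library overlapped. The log2 fold change was -5.41 (SE 1.66, adjusted *P* = 0.043), and its size depends on how levels near 0 are treated. The adjusted *P* ran from 0.0020 to 0.18 over the alternatives. The call was kept without sibling HEC replicate 2 and without sibling HSPC replicate 2 and was lost, with values of -7.05 to -4.84, in each of the 8 other fits that left out 1 library.

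*psma8* was lower in HSPCs by less than the fold minimum. Its 4 HSPC libraries were at 255, 244.5, 313 and 258 CPM, all below the lowest HEC library at 384 CPM, with a log2 fold change of -0.85 (SE 0.23, adjusted *P* = 0.025, from 0.0063 to 0.26 over the alternatives). *psme3* was at 7.05 and 4.76 CPM in sibling HSPCs and 7.92 and 5.98 CPM in mutant HSPCs, below all HEC libraries (-1.38, SE 0.50, adjusted *P* = 0.077). *psma6l*, *psma8* and *psme3* were the 3 members with every HSPC library below every HEC library, against 6.01% of all genes. *psma1* had -0.49 (SE 0.22, adjusted *P* = 0.15) and *psme2* had -1.84 (SE 0.99, adjusted *P* = 0.23).

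All 9 core alpha genes and all 7 core beta genes tested outside the immune type were below HECs under TMM, RLE and column sum scaling. The medians were -0.49 for core alpha subunits, -0.46 for beta subunits without an active site and -0.32 for the catalytic ones (*psmb5* -0.31, *psmb6* -0.38, *psmb7* -0.32). The 7 base ATPases were below HECs with TMM factors, at a median of -0.14, from -0.46 (*psmc1b*) to -0.05 (*psmc4*), but with RLE factors 4 of the 7 were above HECs, at a median of 0.02, and with column sums 2. Of the 5 genes above HECs, 2 were base subunits (*psmd4a*, 0.44, and *psmd2*, 0.09), 1 was a lid subunit (*psmd11b*, 0.21), 1 an activator (*psme4a*, 0.65) and 1 a base chaperone (*psmd5*, 0.20). None of these 5 had an adjusted *P* under 0.05. The value of *psmd2* is partial, since numbered entries, which were not used, held 64.1% of the counts carrying its name. With numbered entries summed into their genes, 4 of 48 members were above HECs. Among the core chaperones *psmg4* was lowest at -0.98 and *psmg3* highest at -0.13. The difference between classes was not tested.

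This direction leaned on the libraries numbered 3, which in HSPCs also held the muscle genes (6464 and 10342 CPM, against 5.22 and 307 CPM in those numbered 2), and the part of muscle RNA in it was not tested. In the pairs numbered 2, 22 (siblings) and 24 (mutants) of 48 genes were higher in HSPCs, against 38.3% and 54.6% of all genes. In the pairs numbered 3 these counts were 5 and 9, against 51.2% and 53.2% of all genes. With TMM-scaled CPM the members' counts were 30 and 14 for number 2 and 4 and 4 for number 3. Relative to all genes, sibling pair 2 went the other way: the members' median was -0.05 and that of all genes -0.20. With TMM-scaled CPM these medians were 0.18 and 0. Without the libraries numbered 3, which leaves 1 HSPC library per genotype, the median was -0.14, with 13 genes above 0. The medians within siblings and within mutants were -0.36 and -0.34, with 7 and 6 genes above 0, where 50.5% and 53% of all genes were, and each of these fits includes a library numbered 3.

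The third comparison set HSPCs against ECs, sorted by the study as the end and the start of the transition. Set against all genes, proteasome genes were near the middle: 32 of 48 were above ECs (55.9% of all genes). Their median log2 fold change was 0.10, and that of all genes 0.19. The abundant genes had a lower median of -0.0017, with 49.9% above ECs. No member was called, where 15.8% of all genes were. At an unadjusted *P* under 0.05, 2 genes were higher (18.5% of all genes) and 1 lower (13.1%). The base ATPases were all above ECs with a median of 0.23, while 4 of 9 core alpha genes were, counts that held under TMM, RLE and column sum scaling. *psmb5*, *psmb6* and *psmb7* had 0.56, 0.11 and 0.10. *psma6l* had -3.81 (SE 1.55, adjusted *P* = 0.11), and without the libraries numbered 3 it was called lower at -5.17. The other extremes of their families, *psme4a* (0.99), *psme3* (-0.28), *psmg4* (-0.79), *psmb12* (-0.61) and *psmd4b* (-0.42), had no adjusted *P* under 0.05.

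The ubiquitin receptor gene *psmd4a* had the lowest adjusted *P* of the members here. It was at 69.6 to 120 CPM in ECs (median 89.4), at 95.2 to 160 CPM in HECs (median 126), at 178 and 149.5 CPM in sibling HSPCs and at 165 and 221 CPM in mutant HSPCs. All 4 HSPC libraries were above all 6 EC libraries, and the log2 fold change of 0.97 (SE 0.25, adjusted *P* = 0.015) lay just under the fold minimum. It passed that minimum under RLE scaling (1.05), without the filter on low counts (1.05), with at least 10 counts required in every library (1.07), in DESeq2 (1.05) and without hemoglobin rows (1.03). The adjusted *P* ran from 0.00048 to 0.13, the latter without the libraries numbered 3. *psmd4a*, *psmd11b* and *psmc3* were the 3 members with every HSPC library above every EC library, against 10.1% of all genes.

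The second copy of the receptor gene, *psmd4b*, did not follow *psmd4a*. It was at 47.4 to 103 CPM in ECs, at 75.01 to 104 CPM in HECs, and at 33.7 and 61.9 CPM in sibling HSPCs and 80.9 and 90.8 CPM in mutant HSPCs, with a log2 fold change of -0.42 between HSPCs and ECs (SE 0.27, adjusted *P* = 0.32). *psmd4a* therefore made up 51.8 ± 10.8% of the counts of the pair in ECs (s.d., *n* = 6), 58.5 ± 4.44% in HECs (*n* = 6) and 73.2 ± 7.50% in HSPCs (*n* = 4). Its HSPC shares were 84.1, 70.7, 67.1 and 70.9%, and 5 of 6 EC libraries lay between 40.3% and 54.8%, while mutant EC replicate 3, at 71.7%, lay within the HSPC range. The pair was chosen after its values were seen, and the shares are given with no test.

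For the lid subunit gene *psmd11* the second copy took the larger share in HSPCs. *psmd11b* was at 67.2 to 158 CPM in ECs (median 132) and at 207, 159, 253 and 187 CPM in HSPCs (log2 fold change 0.75, SE 0.31, adjusted *P* = 0.11). *psmd11a* made up 49.6 ± 8.42% of the pair in ECs, 48.7 ± 6.51% in HECs and 37.3 ± 3.87% in HSPCs. The ranges overlapped: mutant HEC replicate 1, at 36.9%, lay within the HSPC range of 32.8% to 42.3%, and mutant EC replicate 3, at 66.4%, was the highest EC library, the other 5 being at 44.2% to 48.7%. Of the other pairs, *psma6a* made up 65.3, 68.9 and 69.1% of *psma6a* and *psma6b*, and *psmc1a* 52.1, 49.02 and 53.9% of *psmc1a* and *psmc1b*, as means of ECs, HECs and HSPCs. *psme4a* made up 7.15, 6.41 and 10.2% of *psme4a* and *psme4b*, with single libraries from 0% to 21.1%. With the replicate number as a block and no fold minimum, 3 genes were above ECs in HSPCs (8.52% of all genes): *psmd11b* (0.98, SE 0.23, adjusted *P* = 0.012), *psmd4a* (0.98, SE 0.24, adjusted *P* = 0.013) and the nuclear activator *psme4b* (0.78, SE 0.25, adjusted *P* = 0.046). Reads that fit both copies of a pair could have been counted for neither, so these shares rest on the reads given to a single gene.

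**Figure D5:**
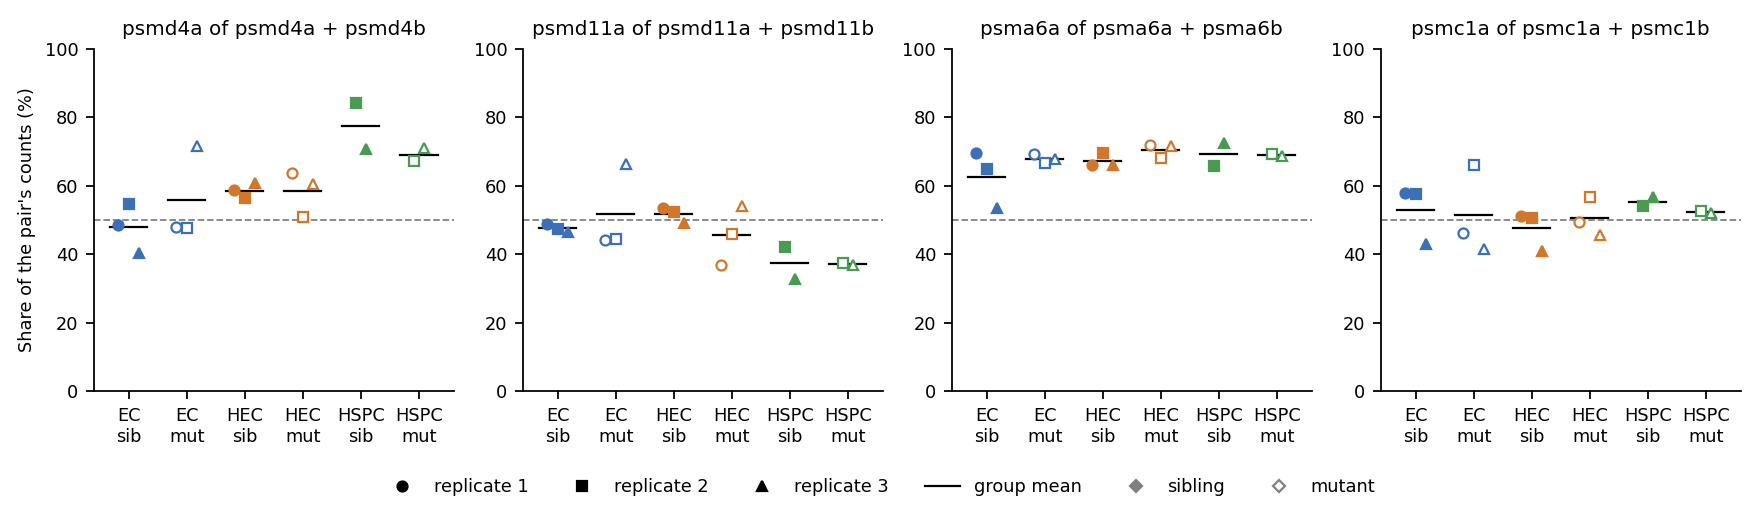
Share of a gene pair's counts (%) that fell on the first copy, for each library by cell type and genotype (filled, sibling; open, *dnmt1* mutant), with group means as lines and a dashed line at equal shares. *psmd4a* takes 67.1% to 84.1% of its pair in the 4 HSPC libraries and *psmd11a* 32.8% to 42.3% of its pair, while *psma6a* and *psmc1a* have like means in the 3 cell types.

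Immune-type subunits were close to absent. *psmb8a*, *psmb9a* and *psmb10*, the copies that replace the constitutive catalytic subunits in mammals after interferon, had 75, 65 and 47 counts in all 16 libraries together. The 75 counts of *psmb8a* came from 4 libraries, with 53 in sibling HEC replicate 3, and 42 of the 47 counts of *psmb10* came from mutant EC replicate 3. *psmb11b*, of the thymus type, had 2 counts in 1 library and *psmb11a* had 0 in all. *psmb12* had 114 counts over 12 libraries, or 0.0158% of the counts of all members, the highest share among the immune-type genes. It had a log2 fold change of 1.70 between HECs and ECs and -2.31 between HSPCs and HECs, neither with an adjusted *P* under 0.05. Set against its constitutive counterpart *psmb5*, without that gene's numbered second entry, *psmb8a* took at most 3.66% of the 2 genes' counts in any library. The activator *psme1* had 1 count in all, but 97.7% of the counts carrying its name were under a numbered second entry, which was not used. In RefSeq's gene order, *psmb8a*, *psmb12* and *psmb9a* are direct neighbours, as are *psmb5* and *psmb11a*.

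Some members differed more between replicate numbers than between cell types. Between libraries numbered 3 and 2, fitted over all cell types and both genotypes with cell type and genotype in the model, 2 members were called lower (1.9% of all genes) and 0 higher (1.08%). The core chaperone gene *psmg4* was at 15.4 to 25.4 CPM in the libraries numbered 2 and 2.67 to 6.59 CPM in those numbered 3 (log2 -2.35, SE 0.31, adjusted *P* = 0.00084). The alpha subunit gene *psma2* had mean levels of 160 and 74.5 CPM (-1.12, SE 0.21, adjusted *P* = 0.0096). Short of the fold minimum, *psma3* (-0.73, SE 0.15, adjusted *P* = 0.018), *psmb1* (-0.72, SE 0.15, adjusted *P* = 0.019) and *psmb6* (-0.98, SE 0.22, adjusted *P* = 0.030) were also lower. *psmc2*, an ATPase, went the other way at 155 and 254 CPM (0.74, SE 0.14, adjusted *P* = 0.011). The median over all 48 members was -0.08, with 21 above 0. *pomp*, another factor of core maturation, was at 93.2 to 125 CPM in libraries numbered 2 and 19.03 to 44.6 CPM in those numbered 3, and was named after its values were seen. What the number stands for is not given in the sources used here.

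The study's own question was what loss of *dnmt1* does in these cells. No difference in a proteasome gene between mutants and siblings passed the threshold in any cell type. edgeR called 0 of 48 members and 0% of all genes in each of the 3 comparisons. DESeq2 called 0 of 54 members in each, against 0.113%, 0.0917% and 0.147% of the genes it fitted in ECs, HECs and HSPCs. At an unadjusted *P* under 0.05 in edgeR, 0 members were higher or lower, against 1.93% and 1.28% of all genes in ECs, 0.983% and 1.72% in HECs, and 1.07% and 0.851% in HSPCs. The median log2 fold changes were -0.02 in ECs, 0.08 in HECs and 0.02 in HSPCs, with 23, 33 and 27 of 48 genes above 0 (49.9%, 46.4% and 49.9% of all genes). The median standard errors of a member were 0.37, 0.37 and 0.45, so that for most single genes differences of the size seen between HECs and ECs were not detectable at this depth and number of libraries.

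Among the genes with active sites, *psmb7* had log2 fold changes of -0.0016 in ECs (95% confidence interval -0.67 to 0.67), 0.03 in HECs and 0.12 in HSPCs, and *psmb5* had 0.51, 0.50 and 0.16. Wider values belonged to genes of low level. They were 1.67 for *psmb12*, 1.21 for *psme3* and -1.69 for *psme4a* in ECs, -1.01 for *psma6l* and 0.98 for *psme4a* in HECs, and -2.39 for *psma6l* and 1.46 for *psme4a* in HSPCs. Same-numbered pairs went both ways: 11, 28 and 36 of 48 genes were higher in mutants in EC pairs 1 to 3, and 16, 31 and 36 in HEC pairs. In HSPC pairs 2 and 3, 34 and 43 genes were higher, but 13 and 39 with TMM-scaled CPM. Without TMM factors, 44.8%, 49.7% and 49.1% of all genes were higher in the EC pairs. These shares were 46.8%, 40.6% and 44.9% in the HEC pairs and 61.8% and 51.8% in the HSPC pairs. The difference of the cell type comparisons between mutants and siblings was also tested. 0 members and 0% of all genes were called, and 0 members had an unadjusted *P* under 0.05, against 1.07% higher and 2.55% lower for HECs versus ECs, 1.4% and 0.836% for HSPCs versus HECs, and 1.15% and 1.21% for HSPCs versus ECs.

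Across the 16 libraries the members varied together to a moderate degree. The median Pearson correlation of log2(CPM + 1) over the 1128 pairs of tested members was 0.38 (interquartile range 0.17 to 0.58), and 88.4% of pairs were above 0. Within groups the median was 0.28, and on TMM-scaled CPM these medians were 0.46 and 0.39. The libraries share depth, scaling and cell type between all members, and the part of these in the correlations was not tested. *psmb7* followed the mean of the other members most closely (*r* = 0.91), and the median member had 0.63. *psmc2* (*r* = -0.06) and *psme4a* (*r* = -0.10) did not follow it, and *psmb5* had 0.34. Among genes outside the set, whose median correlation with the members' mean was -0.06, the 5 most alike over the 16 libraries were *cct5* (0.951), a subunit of the cytosolic chaperonin, *nle1* (0.947) and *nop16* (0.930), both ribosome assembly factors, *ptges3b* (0.946), a co-chaperone, and *cnbpa* (0.936), a nucleic acid binding protein.

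Genes that work beside the proteasome were counted from lists of each pathway. Of 11 genes for proteins associated with the particle, such as the ubiquitin receptor *adrm1* and the deubiquitinase *usp14*, 9 were above ECs in HECs (median 0.22, *usp14* highest at 0.58) and 2 were above HECs in HSPCs (median -0.32), with 0 called. Of 18 genes for ubiquitin and its shuttles, 16 were above ECs in HECs (median 0.49; *uba1*, the ubiquitin-activating enzyme, 0.77) and 8 above HECs in HSPCs (median -0.06), with 0 called. Of 12 genes of the NRF1 route, by which mammalian cells raise proteasome transcription, 6 were above ECs in HECs (median -0.01) and 6 above HECs in HSPCs (median -0.09), and *mafgb* had the widest value between HECs and ECs (2.02, adjusted *P* = 0.20). *mafk*, a small partner of NRF1, fell in HECs against ECs (-1.37, adjusted *P* = 0.023), in HSPCs against HECs (-1.26, adjusted *P* = 0.034) and in HSPCs against ECs (-2.64, adjusted *P* = 0.00040). *keap1b*, which marks a related factor for degradation, rose in HSPCs against ECs (1.08, adjusted *P* = 0.014).

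Chaperones and antigen presentation genes included called changes. Of 26 chaperone genes, 2 were called in HECs against ECs (7.12% of all genes) and 2 in HSPCs against HECs (14%). Of 26 chaperone genes, 23 were above ECs in HECs (median 0.61), where *hsp90aa1.1* and the chaperonin subunit *cct7* (1.05) rose, and 6 were above HECs in HSPCs (median -0.26), where *hsp90ab1* (-1.07) and *hsp90b1* (-1.28) fell. *hsp90aa1.1* was at 0 CPM in the 3 sibling ECs and at most 3.004 CPM in mutant ECs, so that no fold is given. Its HEC levels were 0.524, 6.16 and 19.6 CPM in siblings and 127, 4.15 and 9.44 CPM in mutants, and the library at 127 CPM, mutant HEC replicate 1, also had the highest levels of the muscle genes *ckmb* (1072 CPM) and *acta1b* (327 CPM) among HECs. The HSPC libraries numbered 3, rich in muscle genes, had 508 and 346 CPM, and the part of muscle RNA was not tested. Of 24 interferon and antigen presentation genes, 18 were above ECs in HECs (median 0.72), and *irf2* (1.17) and *jak2a* (2.08) rose. Only 3 were above HECs in HSPCs (median -1.05), where *jak2a* rose (2.01) and 7 fell (5.62% of all genes were called lower). Among those that fell were *b2m* (-3.77), *tap1* (-5.63) and *tapbp.1* (-3.02), the light chain and peptide loading genes of class I presentation. *tap1* was at 5.07 to 13.1 CPM in HECs and 0 to 3.13 CPM in HSPCs. *tapbp.1* was at 3.69 to 40.4 and 1.42 to 4.24 CPM, and *b2m* at 24.1 to 83.2 and 0 to 3.92 CPM, in the same order. The sizes of these falls depend on how levels near 0 are treated. The summed myeloid genes were also lower in this comparison, at 166 to 2406 CPM in HSPCs against 1133 to 12933 CPM in HECs. Their part in it was not tested. Of 19 proliferation genes, 15 were above ECs in HECs (median 0.45, with *rrm1* called at 1.08) and 17 above HECs in HSPCs (median 0.44, with *ccna2* called at 1.12). The lists were drawn up with earlier results of these data known, and their counts are descriptions with no test of the list.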

How the data were processed

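RNA-seq counts per gene were deposited by the authors for 16 libraries. Per the study's methods and the submitters' processing notes, adapters were removed with cutadapt, reads were mapped to GRCz11 with HISAT2 2.2.1 and counted with HTSeq 0.12.4; annotation and strand setting are not given in the sources used here. The 5 tallies of reads given to no gene (45.8% of reads) were left out of library sizes. Numbered second entries of a gene were left out: 11 members had 14 of them, which held 97.7% of the counts of *psme1*, 89.0% of *psmc6*, 64.1% of *psmd2* and 55.2% of *psmb5*, so that levels of these genes are partial. CPM were computed from column sums.

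All 16 libraries were fitted in 1 model of the 6 groups in edgeR 4.0.16 (R 4.3.3, limma 3.58.1) with TMM factors, filterByExpr, a robust quasi-likelihood test and Benjamini-Hochberg adjustment over 21161 genes. Cell types were compared as the mean of both genotypes. A call needed an adjusted *P* under 0.05 and a log2 fold change of at least 1. Fits were also run on simulated data, drawn with no effect of replicate number and called at a lower fold minimum. The outcome of those runs is not given here. The alternatives were RLE factors, column sums, other filters, the compared groups alone, the replicate number as a block, DESeq2 1.42.0, summed pairs and leaving out each library. Same-numbered libraries deviated together: their residual correlation was 0.218 to 0.362 (EC), 0.252 to 0.507 (HEC) and 0.500 (HSPC) between genotypes and 0.109 to 0.278 across cell types. For different numbers it was at most 0.108, and numbers were taken to pair libraries. Residuals were taken from means of groups of 2 or 3 libraries, which by itself lowers the values for different numbers. In HSPCs, with 2 libraries per group, 0.500 and its mirror of -0.500 for different numbers are 1 observation.

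Named were the catalytic and immune-type genes, called members, and the highest and lowest fold change of each family in each comparison. *psma8*, *psma1*, *psmb1*, *psme2*, *psme3*, *psmd4a*, *psmd4b*, *psmg4* and members given as examples of a class or pair were added after their values were seen. Members and lists were chosen with earlier results of these data known. Levels were not compared between genes, since no transcript lengths of the build used were at hand. All 55 members matched RefSeq's GRCz12tu gene table (54 by symbol, 1 by synonym), used for neighbours only. The deposited tables of the authors' comparisons (fold changes and *P*-values) and lists of methylated regions were not used.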

Additional observations from a re-analysis of the deposited data

How the results depend on the processing

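The shared direction of the proteasome genes in HECs against ECs kept its sign under all alternatives: their median log2 fold change was 0.27 to 0.52 without each library in turn, with 43 to 48 of 48 genes above 0. In HSPCs against HECs the median was -0.52 to -0.15 without each library and -0.12 with at least 10 counts in every library, and relative to all genes it was nearest to 0 (-0.08) without the libraries numbered 3. In HSPCs against ECs it was -0.02 to 0.22. The medians between genotypes changed sign with single libraries: -0.15 to 0.18 in ECs, -0.03 to 0.29 in HECs and -0.17 to 0.33 in HSPCs. Where a fit left 1 HSPC library in a group, that library was assumed to vary like the other groups. Depth limits the immune-type genes and *psma6l*, at or near 0 counts in many libraries. The cause of the changes listed here was not tested.

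The count of called members in HECs against ECs was 0 in the fits without each library and 2 of 54 in DESeq2 at an adjusted *P* under 0.05. It was 6 of 54 in DESeq2 at 0.5, the threshold of the study's methods. Of all 32705 genes DESeq2 called 3206 at 0.05 and 7389 at 0.5 here. In HSPCs against HECs it was 0 with no filter, with at least 10 counts in every library, with same-numbered genotypes summed and with numbers 2 and 3 only, 0 to 1 without each library, 2 with no fold minimum, and 2 and 4 in DESeq2 at 0.05 and 0.5. In HSPCs against ECs it was 1 with RLE factors, no filter, at least 10 counts, no fold minimum, without the libraries numbered 3 and without hemoglobin rows, 0 to 1 without each library, and 2 and 5 in DESeq2 at 0.05 and 0.5. Of all 32705 genes DESeq2 called 4053 and 9497 in HSPCs against HECs, at 0.05 and 0.5. In HSPCs against ECs it called 4532 and 10185. Between genotypes the count of called members was 0 in all fits. The replicate block gave 0, 1 and 0 calls in the 3 comparisons and changed no other call. With no fold minimum it gave 6, 2 and 3 calls, where 2698, 3284 and 3670 of all 21161 genes were called. The alternatives on the libraries numbered 3, on numbers 2 and 3, on hemoglobin, on numbered entries and on the block with no fold minimum were chosen after seeing the data.

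Among the named genes, log2 fold changes turned sign as follows, and none of these values was called. Without the libraries numbered 3, *psmd4b* was -0.092 (HEC against EC), *psma2* 0.081, *psmc4* 0.16, *psme4a* -0.15 and *psmg3* 0.43 (HSPC against HEC), and *psmb12* 0.044 and *psme2* -1.64 (HSPC against EC). In HSPC against HEC, *psmc4* was 0.11 with RLE factors, 0.013 with column sums, 0.053 with no filter, 0.14 with at least 10 counts, 0.0495 on the compared groups, 0.037 with the replicate block, 0.11 in DESeq2, 0.10 with numbers 2 and 3, and 0.049 without hemoglobin, and *psmg3* was 0.036 with RLE factors, 0.063 with at least 10 counts and 0.034 in DESeq2. In HSPC against EC, *psme3* was 0.0403 and *psmg3* -0.18 with the replicate block, 0.15 and -0.11 with numbers 2 and 3, and *psmg3* -0.041 with summed libraries. Between genotypes in ECs, *psmb6* was 0.18 with the replicate block, and *psmb7* 0.0022 with RLE factors, 0.024 with column sums, 0.0028 with no filter, 0.011 with at least 10 counts, 0.0053 on the compared groups, 0.013 with the block and 0.0031 in DESeq2. In HSPCs, with column sums *psmb6* was 0.18, *psmd9* 0.17, *psme2* 0.10 and *psmg1* 0.13; *psmd9* was 0.10 and *psme2* 0.59 with the block, and *psme2* 0.0015 with no filter and 0.013 on the compared groups.

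Leaving out each library gave ranges that cross 0 for these genes. They were -0.0302 to 0.27 for *psma3*, -0.11 to 0.38 for *psmb2*, -0.0303 to 0.18 for *psmd4b* and -0.0034 to 0.38 for *psmg3* in HEC against EC. They were -0.24 to 0.16 for *psmc4*, -0.052 to 1.02 for *psme4a* and -0.88 to 0.24 for *psmg3* in HSPC against HEC. They were -0.26 to 0.36 for *psmb6*, -0.061 to 0.26 for *psmb7*, -3.03 to 1.61 for *psmb12*, -0.028 to 0.20 for *psmc1b*, -0.72 to 1.23 for *psme2*, -0.43 to 0.022 for *psme3* and -0.69 to 0.42 for *psmg3* in HSPC against EC. Between genotypes in ECs they were -1.13 to 1.45 for *psma6l*, -0.43 to 0.0040 for *psmb3*, -0.49 to 0.27 for *psmb6*, -0.17 to 0.21 for *psmb7*, -0.046 to 0.31 for *psmc2* and -0.13 to 0.70 for *psmg1*. In HECs they were -0.12 to 0.49 for *psmb6*, -0.13 to 0.29 for *psmb7*, -0.55 to 0.14 for *psmb12* and -0.29 to 0.36 for *psme4b*. In HSPCs they were -0.46 to 1.16 for *psma2*, -5.62 to 3.44 for *psma6l*, -0.53 to 0.63 for *psmb5*, -0.70 to 0.68 for *psmb6*, -0.18 to 0.49 for *psmb7*, -4.84 to 4.45 for *psmb12*, -0.14 to 0.33 for *psmc1b*, -1.36 to 0.91 for *psmc3ip*, -0.71 to 1.02 for *psmd9*, -1.11 to 2.92 for *psme2*, -0.28 to 0.13 for *psmg1* and -0.11 to 1.03 for *psmg2*. Over all alternatives, 1913 values of the named genes and of the members' medians were counted as kept. For a gene this meant the same direction and side of the threshold. For a median it meant a shift under the members' median standard error, whatever its sign. Of the gene values, 111 changed sign, 32 passed the threshold only under the alternative and 11 lost it.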
